A study of Mus musculus with 9 samples.

Results

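Of the 13890 genes in the heart count table, 10 are treated here as genes of monocytes and of the macrophages that form from them: Ccr2, Cx3cr1, Ly6c2, Plac8, Itgax, Cd207, Cd300ld, Mmp12, Lyz1 and Lyz2. They were chosen by symbol, with earlier results of these libraries known, so their differences between groups are descriptions and carry no test of their own. All 10 were found in the table, and 9 passed the filter on low counts. Itgax did not pass it.

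The hearts came from NSG male mice, an immunodeficient strain that lacks mature lymphocytes and has defective macrophages and dendritic cells, operated on at 8 weeks of age and killed about 3 weeks later by the deposited design, or some days after that by the study's methods. The groups are given as labelled. Saline was given to the sham group (S, animals 2, 3 and 5). HCT116 cells, a human colorectal cancer line, were placed in the spleen of the group labelled T (animals 11, 12 and 15). The third group had the same cells together with weekly ACVR2B/Fc (A + T, animals 20, 21 and 22). This agent is a decoy receptor in soluble form, which captures myostatin, activins and similar ligands. No library labelled as ACVR2B/Fc without a tumour was analysed here. Set against S, the libraries labelled T gave fold changes that did not match those the study lists for tumour hosts but matched those it lists for ACVR2B/Fc alone. Whether the label or that list holds for these libraries was not settled, so T is used throughout as the name of a label only, and so is any direction in or against T.

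Circulating monocytes leave the bone marrow through the chemokine receptor Ccr2, enter tissues and can become macrophages there. The adult heart also holds resident macrophages seeded before birth, which renew locally and largely lack Ccr2. Cx3cr1, the receptor for fractalkine, is found on both patrolling monocytes and many tissue macrophages, and lysozyme is made by nearly all of them. In bulk tissue RNA, fewer cells of a type and less RNA per cell cannot be told apart.

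The 10 genes did not move as 1 group. Cd207 and Cd300ld were lower in T than in S and higher in A + T than in either, with no overlap between any pair of groups. Lyz2, by far the most abundant of the 10, was similar in S and T and higher in every A + T animal. Ccr2, Itgax and Mmp12 were also highest in A + T, but with a large spread among its 3 animals. Lyz1, Plac8 and Ly6c2 were high mainly in animal 22, a library that also carried RNA of airway and lung.

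The upstream sequences of Cd207, Cd300ld and Mmp12, the tested members with the highest fitted log2 fold changes in A + T vs. T after Lyz1, are shown because the same 6 bases occur in each. Capitals mark GAGGAA, or TTCCTC where it lies on the opposite strand, which holds the GGAA core bound by Spi1 (PU.1), the transcription factor needed for monocytes and macrophages. The stretches run 5′ to 3′ along the gene's strand, from 250 to 51 bases before the start, from RefSeq on GRCm38.p6, at chr6:83677908-83678107 (minus strand) for Cd207, chr11:114989937-114990136 (minus) for Cd300ld and chr9:7344147-7344346 (plus) for the first of the 2 annotated starts of Mmp12.
Cd207: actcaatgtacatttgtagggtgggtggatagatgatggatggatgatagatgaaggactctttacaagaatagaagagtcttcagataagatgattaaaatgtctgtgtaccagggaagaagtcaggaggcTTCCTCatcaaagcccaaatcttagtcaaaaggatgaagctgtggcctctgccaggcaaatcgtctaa
Cd300ld: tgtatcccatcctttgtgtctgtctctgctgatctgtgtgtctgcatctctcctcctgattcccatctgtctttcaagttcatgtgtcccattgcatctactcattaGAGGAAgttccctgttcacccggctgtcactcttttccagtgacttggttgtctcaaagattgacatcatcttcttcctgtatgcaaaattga
Mmp12: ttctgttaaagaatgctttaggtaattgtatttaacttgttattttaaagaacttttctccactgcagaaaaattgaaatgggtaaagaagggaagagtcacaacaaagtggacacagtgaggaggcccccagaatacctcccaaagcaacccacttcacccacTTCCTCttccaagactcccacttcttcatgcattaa
Searched on both strands of the whole 250 bases before each start, GAGGAA occurred in 5 of the 10 genes (Cd207, Cd300ld, Ly6c2, Mmp12 and Plac8), and in 25.9% of the 27025 genes with such a sequence. The longer GAGGAAGT, which contains it, occurred for Cd300ld, Ly6c2 and Mmp12 and in 2.79% of all genes. A match is a string of letters and not a measured binding site.

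The first 150 coding bases of Lyz1 and Lyz2 are shown because the genes are neighbouring copies, whose reads have to be told apart for their counts to differ. They come from the GENCODE transcripts, and capitals mark the 14 bases that differ.
Lyz1: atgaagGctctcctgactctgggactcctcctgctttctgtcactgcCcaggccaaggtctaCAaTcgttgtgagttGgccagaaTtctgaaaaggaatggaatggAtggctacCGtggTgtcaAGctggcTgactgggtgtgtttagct
Lyz2: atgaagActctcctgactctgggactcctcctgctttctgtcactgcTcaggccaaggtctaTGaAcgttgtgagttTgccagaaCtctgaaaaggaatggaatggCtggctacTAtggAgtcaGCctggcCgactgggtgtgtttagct
The genes lie on chromosome 10 of GRCm38, Lyz1 at 117287797 to 117292868 and Lyz2 at 117277331 to 117282321, separated by 5475 bases. Their coding sequences of 444 bases were identical at 422 of them (95%). Of all 75-base windows of the transcripts, the read length used, 6.22% of those of Lyz1 occurred unchanged in Lyz2. Because reads with more than 1 place in the genome were left out by the authors, most but not all positions could separate the copies, and a small count of Lyz1 beside a large one of Lyz2 remains uncertain.

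Depth ran from 12392222 to 19732471 counts per library, where 3 counts corresponded to between 0.152 and 0.281 CPM (counts scaled to a common library size, here with edgeR's TMM factors). These limits, and the intervals given below, reflect counting error alone. The ribosomal gene Rn45s took 4.57% to 19.6% of a library. Within each group, any 2 libraries were further apart than counting would give (mean chi-square of 7.64 or more per gene). Cardiomyocyte genes of the ventricle summed to between 42100 and 62600 CPM, so the labelled tissue was present. The 6 atrial genes, in contrast, varied widely in T and A + T, with sums of 3060 to 3140 CPM (S), 902 to 4620 (T) and 826 to 2100 (A + T). Every A + T sum was below those of S, and T overlapped with both. The share of atrium in each sample was not tested as a part of the values below. Bmp10, a growth factor of the atrium, had 1196, 3119 and 1270 counts in S, 30, 19 and 19 in T, and 4, 5 and 837 in A + T, so that its log2 fold change of 3.48 in A + T vs. T turned to −2.36 without animal 22. The 7 airway and lung epithelium genes in the table had sums of 1.44 to 4.41 CPM (S), 2.48 to 195 (T) and 2.22 to 1620 (A + T). Animal 22 held the highest of these sums and animal 12 of T the highest outside A + T. Scgb1a1, a secretory protein of the airway, had 17508 counts in animal 22 and 0 in animals 20 and 21. The 6 neutrophil genes summed to 251 CPM in animal 22, which was 11.8 times the mean of the other A + T animals, and none of the 6 passed the test in any comparison with all libraries, while 1, S100a9, passed in T vs. S without animal 22 (log2 fold change 1.57, adjusted P = 0.0476, edgeR). The summed alveolar macrophage genes, 8 in the table, ranged over 32.5 to 39.6 CPM (S), 53.2 to 89.1 (T) and 52.2 to 157 (A + T). Marco, a scavenger receptor of alveolar macrophages, had 344 counts in animal 21, 77 in animal 22 and 4 in animal 20. The part of these cells in the values below was not tested, and log2 fold changes of A + T vs. T are therefore also given without animal 22 for the members that could be fitted.

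The plot of CPM by library shows these patterns for each gene.

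**Figure D1:**
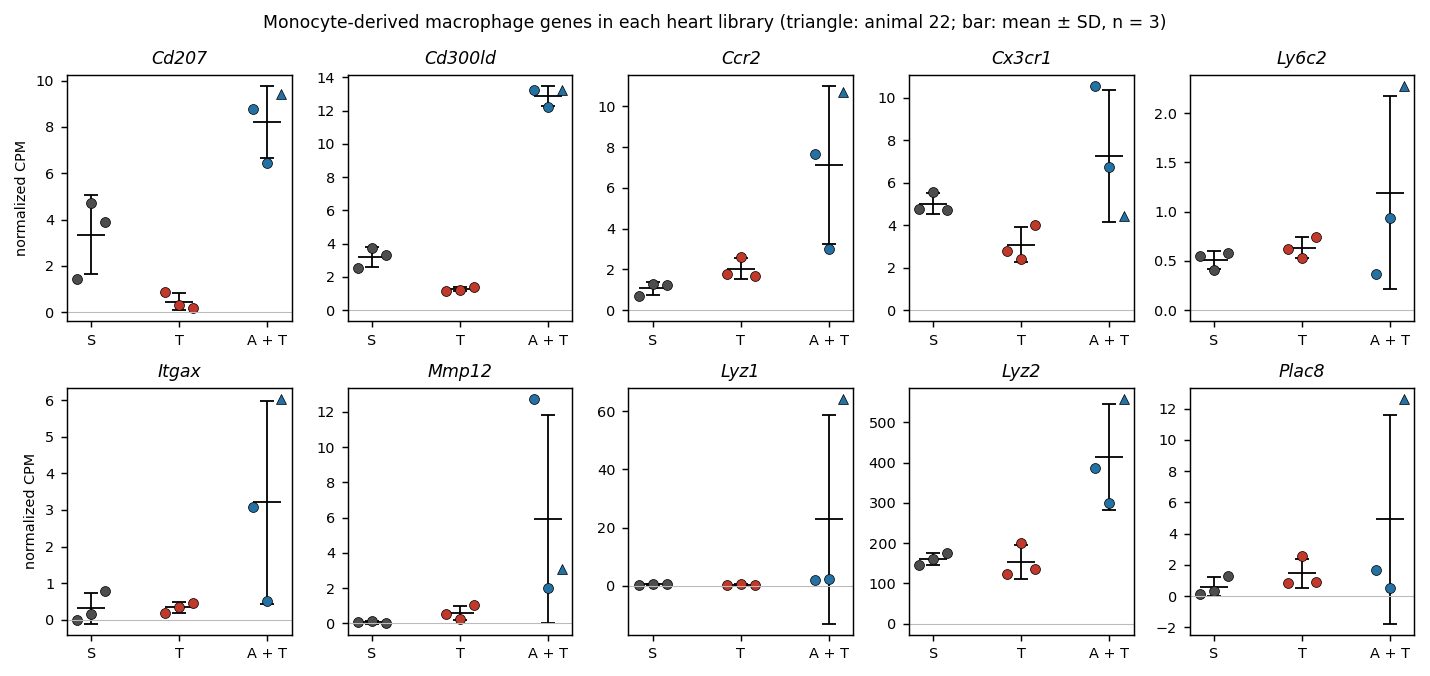
CPM (TMM-normalized) of the 10 genes in S, T and A + T, with 1 point per animal, a triangle for animal 22, and a bar for the mean with its SD (n = 3). In A + T the 3 points of Cd300ld lie close together, between 12.2 and 13.2 CPM, whereas Lyz1, Plac8 and Ly6c2 have 1 high point, which is animal 22.

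Levels can be compared between genes only per length, for which the authors' log2 values were used, since they differ from the log2 CPM by a constant for each gene. On this log2 scale Lyz2 had a mean of 7.23 in S, and the other 9 genes lay between −4.27 for Mmp12 and 1.02 for Cd207. The order below Lyz2 in S was Cd207, Cx3cr1 (0.44), Cd300ld (0.43), Plac8 (−0.25), Ly6c2 (−0.34), Lyz1 (−1.10), Ccr2 (−1.63), Itgax (−3.65) and Mmp12. Neighbours from Cd207 to Ly6c2 overlapped in their 3 animals. Levels of Mmp12 and Itgax in S rest on 4 and 14 counts in all.

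**Figure D2:**
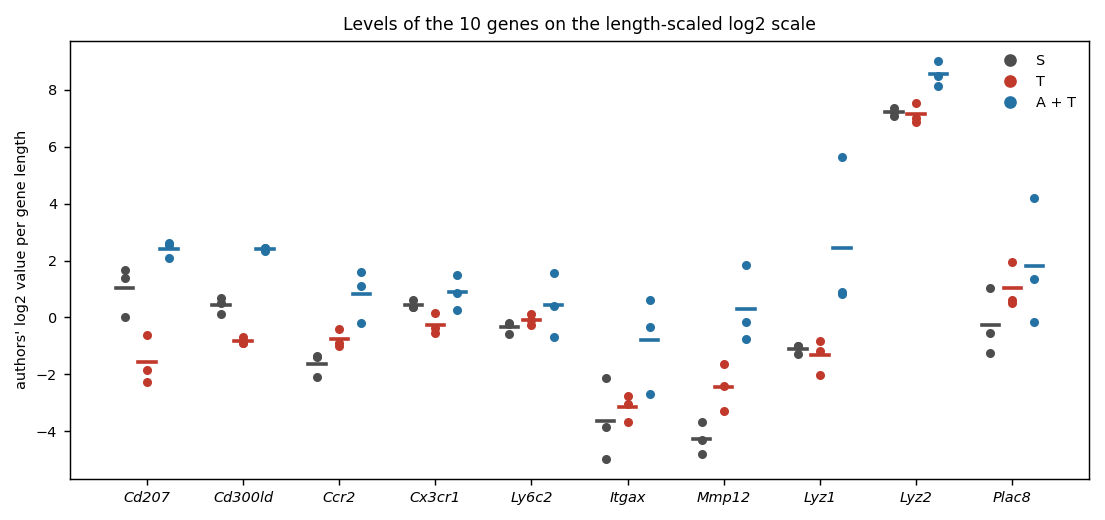
The authors' length-scaled log2 value (y axis) of each of the 10 genes, with 1 point per animal and a line at the mean of S, T and A + T. Lyz2 stands above the other 9 genes in all 9 libraries, and Mmp12 and Itgax are the lowest in S.

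Of the genes of circulating monocytes, Ccr2, on chromosome 9 from 124101950 to 124113557, had 13, 25 and 17 counts in S, 29, 44 and 18 in T, and 124, 42 and 174 in A + T, in the order of the animals. The groups did not overlap in CPM, and the A + T animals were spread most, with animal 21 lowest. In S, T and A + T the means were 1.07 ± 0.307, 2.03 ± 0.508 and 7.13 ± 3.88 CPM (SD, n = 3). Its fitted log2 fold change was 0.94 (standard error 0.47) in T vs. S, 1.80 (0.41) in A + T vs. T and 2.74 (0.44) in A + T vs. S. Without animal 22, the last 2 were 1.38 and 2.33.

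Cx3cr1, also on chromosome 9 (119901616 to 120069879), had 86, 110 and 65 counts in S, 45, 41 and 43 in T and 171, 94 and 72 in A + T. Every T animal was below every S animal in CPM, and A + T overlapped with S but not with T. Here animal 22 was the lowest of A + T for this gene, at 4.43 CPM against 10.6 and 6.75. The log2 fold change was −0.73 (standard error 0.31) in T vs. S, 1.26 (0.31) in A + T vs. T and 0.53 (0.29) in A + T vs. S, and without animal 22 the last 2 were 1.52 and 0.80. Without animal 20, the highest of the 3, A + T vs. S was 0.15.

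Ly6c2 encodes a surface antigen by which inflammatory monocytes are sorted, and it lies on chromosome 15 from 75108158 to 75111970. It had 10, 8 and 8 counts in S, 10, 9 and 8 in T, and 6, 13 and 37 in A + T. The A + T values overlapped with both other groups, and animal 22 alone lay above them by more than 2-fold. The means were 0.512 ± 0.0931, 0.634 ± 0.107 and 1.19 ± 0.980 CPM (SD, n = 3). Fitted in A + T vs. T, its log2 fold change of 0.93 (standard error 0.56) became 0.03 without animal 22. Its copy Ly6c1, 59327 bases away and with 97.7% of its coding bases in common, had between 643 and 1365 counts per library. Since 21.9% of the 75-base windows of Ly6c2 occur in Ly6c1, the low values of Ly6c2 are uncertain.

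Plac8, a small cysteine-rich protein of several leukocytes and epithelia (chromosome 5, 100553725 to 100572245), had 3, 7 and 18 counts in S, 14, 43 and 10 in T, and 27, 7 and 205 in A + T. Animal 22 held 85.8% of the A + T counts, and the highest T value was that of animal 12. The 3 means were 0.607 ± 0.608, 1.45 ± 0.956 and 4.93 ± 6.69 CPM (SD, n = 3), and the groups overlapped except for that animal. The log2 fold change of A + T vs. T was 1.73 (standard error 0.97), and its sign turned to −0.43 without animal 22. In T vs. S it was 1.39, with 0.66 without animal 12 and 2.46 without animal 5 of S.

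The next 3 genes encode surface receptors of macrophages and dendritic cells. Cd207, the C-type lectin langerin, best known from Langerhans cells of the skin, lies on chromosome 6 from 83671215 to 83677857. It had 26, 93 and 54 counts in S, 14, 5 and 2 in T, and 142, 90 and 153 in A + T. The highest T animal (0.867 CPM) was below the lowest S animal (1.44 CPM), and the lowest A + T animal (6.46 CPM) was above the highest of S (4.72 CPM). The means were 3.35 ± 1.71, 0.450 ± 0.365 and 8.22 ± 1.56 CPM (SD, n = 3). The log2 fold change was −2.80 (standard error 0.54) in T vs. S, 4.09 (0.52) in A + T vs. T and 1.30 (0.40) in A + T vs. S. Animal 22 held 39.7% of the A + T counts, and A + T vs. T was 3.98 without it.

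Cd300ld, an activating immunoglobulin-like receptor of myeloid cells on chromosome 11 (114982274 to 114989922), was the steadiest of the 10 genes. It had 46, 74 and 46 counts in S, 19, 20 and 15 in T, and 214, 170 and 215 in A + T. In CPM each group kept to a narrow range, 2.54 to 3.75 in S, 1.18 to 1.40 in T and 12.2 to 13.2 in A + T. It had a log2 fold change of −1.36 (standard error 0.20) in T vs. S, 3.37 (0.19) in A + T vs. T and 2.00 (0.17) in A + T vs. S. Without animal 22, which carried 35.9% of the A + T counts, the last 2 were 3.35 and 1.99.

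Itgax encodes the integrin CD11c, carried by dendritic cells, by alveolar macrophages and by some monocyte-derived macrophages (chromosome 7, 128129547 to 128150657). It had 0, 3 and 11 counts in S, 3, 6 and 5 in T, and 50, 7 and 98 in A + T. Animals 20 and 22 were above all other libraries, while animal 21, at 0.502 CPM, lay within the range of S. The means were 0.316 ± 0.422, 0.337 ± 0.142 and 3.21 ± 2.77 CPM (SD, n = 3). In a fit with no filter, the log2 fold change was 3.28 in A + T vs. T. Animal 22 held 63.2% of the A + T counts. The ratio of mean CPM in A + T over T was 9.53 with that animal and 5.34 without it, and without it A + T still overlapped with S.

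The last 3 genes encode secreted enzymes. Mmp12 is the metalloelastase of macrophages, which degrades elastin, and lies on chromosome 9 from 7344381 to 7369499. It had 1, 3 and 0 counts in S, 9, 4 and 11 in T, and 206, 28 and 50 in A + T. The groups did not overlap, animal 20 was the highest and animal 22 held only 17.6% of the A + T counts. Since S was at or below 3 counts in each library, ratios of depth-scaled summed counts with their 95% counting intervals replace fitted folds against S. They were 7.09 (2.44 to 28.1) for T over S, 79.1 (30.6 to 292) for A + T over S and 11.1 (7.34 to 17.7) for A + T over T. The fitted log2 fold change of A + T vs. T was 3.38 (standard error 0.76), 3.70 without animal 22 and 2.15 without animal 20.

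Lyz2, the lysozyme of myeloid cells, which alveolar epithelium also makes, had 2643, 3166 and 2414 counts in S, 1989, 3368 and 1449 in T and 6240, 4180 and 9055 in A + T. S and T overlapped, and every A + T animal was above all others. The means were 160 ± 14.2, 153 ± 41.3 and 414 ± 131 CPM (SD, n = 3), and animals 20, 21 and 22 measured 386, 300 and 558 CPM. The log2 fold change was −0.07 in T vs. S, 1.44 (standard error 0.23) in A + T vs. T and 1.37 (0.23) in A + T vs. S. Without animal 22 the last 2 were 1.16 and 1.10.

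Lyz1, the lysozyme known from Paneth cells of the gut, had 7, 10 and 7 counts in S, 7, 10 and 2 in T, and 34, 31 and 1042 in A + T. Animals 20 and 21 were above all S and T libraries, at 2.10 and 2.22 CPM, and animal 22 was 29.7 times their mean. It held 94.1% of the counts of the group. The log2 fold change of A + T vs. T was 5.71 (standard error 1.42), and 2.31 without animal 22.

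Over the 9 tested genes, at an adjusted P-value under 0.05 of edgeR's quasi-likelihood test, 2 were lower in T vs. S (Cd207 and Cd300ld), where 21.2% of all genes tested passed in either direction. Against T, 7 were higher in A + T (Cd207, Cd300ld, Ccr2, Cx3cr1, Mmp12, Lyz1 and Lyz2), where 5.88% passed and 3.09% were higher. Against S, 5 were higher in A + T (Cd300ld, Ccr2, Mmp12, Lyz1 and Lyz2), where 8.31% passed and 4.67% were higher. Of these genes, Cd207, Mmp12 and Lyz1 passed the filter on low counts only through A + T libraries, in which they were highest. Their calls as higher in A + T are therefore descriptions and lend no support. T enters 2 of the 3 comparisons and S another pair of them, so the counts are not independent, and since the genes were picked with these results known nothing is read from the counts against the background. Without overlap between the groups were 5 of the 9 in T vs. S, 7 in A + T vs. T and 6 in A + T vs. S, beside 42.6%, 25.4% and 32.4% of all genes tested. An exact permutation test of 1 gene in 3 against 3 animals cannot go below 0.1. The median log2 fold change of the 9 in these 3 comparisons, in this order, was −0.07, 1.80 and 2.00, beside 0.00, 0.01 and 0.00 over all genes tested.

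Without animal 22 the counts became 3 lower in T vs. S, 6 higher in A + T vs. T and 5 higher in A + T vs. S, where 28.3%, 7.53% and 6.73% of all genes passed. The count in A + T vs. T moved more with other animals. It was 2 without animal 11, 3 without animal 3 or animal 12, and 4 without animal 2, 5 or 20. With each animal left out in turn, Cd207 and Cd300ld passed in A + T vs. T in 9 of 9 fits and Lyz2 in 8, while Mmp12 passed in 4, Lyz1 in 3, Ccr2 in 2 and Cx3cr1 in 2. These fits kept the filter set on all 9 libraries, so the passes of Cd207, Mmp12 and Lyz1 lend no support.

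**Figure D3:**
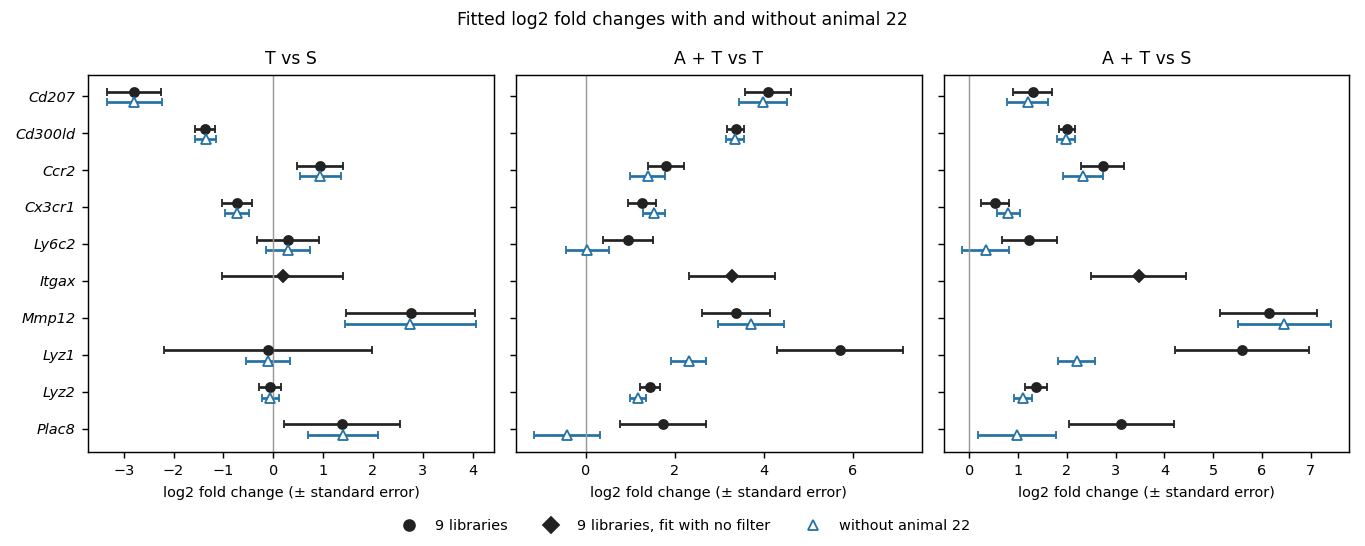
Log2 fold change with its standard error for the 10 genes in each of the 3 comparisons, fitted on all 9 libraries (black; the diamond for Itgax is from the fit with no filter) and without animal 22 (open triangles, 9 genes). In A + T vs. T the pairs nearly coincide for Cd207 and Cd300ld, while Lyz1 moves from 5.71 to 2.31 and Plac8 from 1.73 to −0.43.

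Animal 22 was compared with the mean of animals 20 and 21 for each gene. Across all 13364 genes tested, the median of this ratio was 1, and 3.87% of the genes were above 2 and 0.262% above 10. Lyz1 (29.7) and Plac8 (11.6) were the members above 10. Ly6c2 and Itgax were above 3, Ccr2 was just above 2 (2.01), and Cx3cr1 and Mmp12 were below 1.

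**Figure D4:**
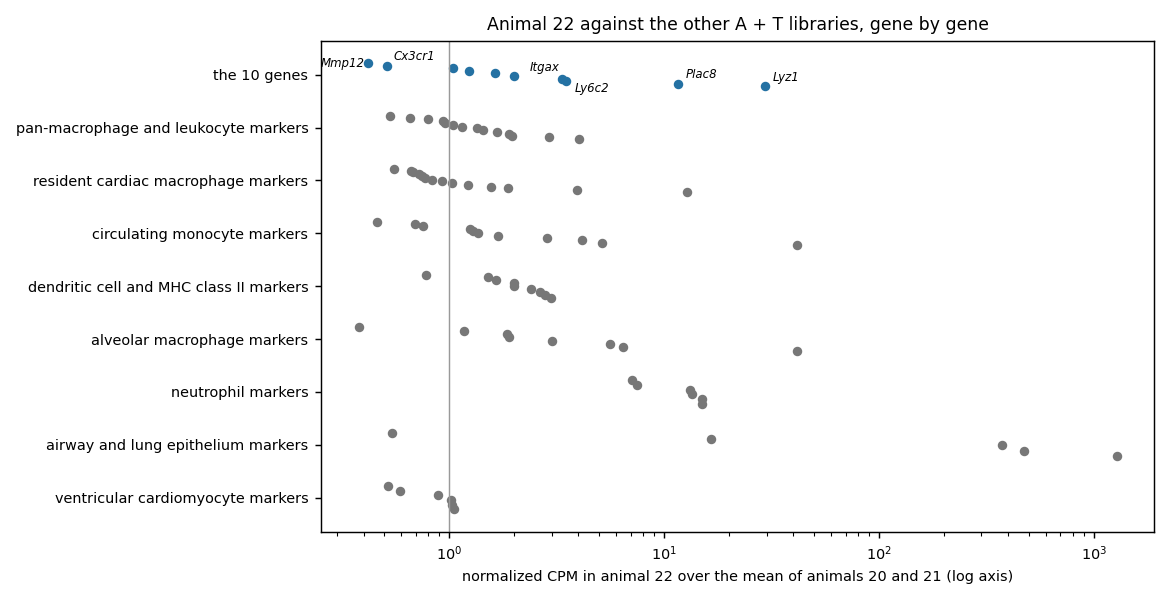
Ratio of the CPM of animal 22 to the mean of animals 20 and 21 (log axis) for the 10 genes and for genes of other cell types, with 1 point per gene and genes of the 10 left out of the other lists. The airway genes Scgb1a1 and Bpifa1 have no point, because animals 20 and 21 held no counts of them. Airway and neutrophil genes reach far to the right, ventricular genes stay near or below 1, and Lyz1 and Plac8 lie beyond 10.

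The genes whose log2 CPM followed the members most closely over the 9 libraries are given as a description, since all libraries share the group differences. Nearest to Cd300ld were Clec5a (Pearson r = 0.952), Dock10 (0.951), Vsig4 (0.95), Pik3ap1 (0.946) and Zfp608 (0.946). Nearest to Cd207 were Gsap (0.956), Dguok (0.951), Grhl2 (0.948), Zbtb12 (0.948) and Lst1 (0.943). Lgals3, which encodes galectin-3, a lectin of activated macrophages, was nearest to Ccr2 (0.982), followed by Cyth4 (0.976), Lilrb4a (0.971), Atp8b4 (0.955) and Bhlhb9 (0.954).

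In the gene lists that follow, counts of genes that passed stand beside 21.2% of all genes tested in T vs. S and 5.88% in A + T vs. T. The T vs. S counts of resident macrophage genes, circulating monocyte markers and transcription factors lie near that share, and nothing particular to those lists is read from them. Of the genes named below, Ccl8, Ccl12, Cd300lf and Chil3 would have failed the filter on low counts had their T libraries also been low. Adgre4 would have failed it had its A + T libraries been low. Calls of these genes as higher in those libraries are descriptions and lend no support.

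General macrophage and leukocyte genes were higher in A + T. The summed CPM of 14 such genes was 88.2 to 112 (S), 92.8 to 141 (T) and 198 to 241 (A + T). Against T, 8 of the 14 rose in A + T and none fell, with a median log2 fold change of 1.01, and 7 rose without animal 22. In T vs. S, 1 of the 14 rose. Adgre1, which encodes the macrophage antigen F4/80, rose by 1.22 in A + T vs. T (standard error 0.23, adjusted P = 0.0175, edgeR), from 10.8 ± 2.04 to 25.3 ± 8.13 CPM (SD, n = 3). Lgals3 rose by 1.73 (adjusted P = 0.0263, edgeR), Aif1 by 1.30 and Ptprc, the pan-leukocyte antigen CD45, by 1.23. Without animal 22 the changes of Adgre1, Lgals3, Aif1 and Ptprc were 1.46, 1.32, 1.32 and 0.85. The call of Ptprc held in 4 of 9 leave-one-out fits, that of Aif1 in 5, that of Lgals3 in 6 and that of Adgre1 in 7.

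Markers of resident cardiac macrophages went both ways. Of 14 genes, 3 rose in T vs. S, and in A + T vs. T 1 rose and 2 fell (2 and 3 without animal 22). Vsig4, a complement receptor of tissue-resident macrophages, rose by 3.03 in A + T vs. T (standard error 0.29, adjusted P = 0.00248, edgeR), from 56, 106 and 42 counts to 740, 477 and 542. It passed in 9 of 9 fits, with 3.11 without animal 22. The chemokine Ccl8 and the lectin Clec10a moved the opposite way. Ccl8 had 5, 10 and 9 counts in S, 45, 67 and 24 in T, and 3, 0 and 1 in A + T. Clec10a rose by 1.07 in T vs. S and fell by 2.10 in A + T vs. T (adjusted P = 0.00397, edgeR), and both genes passed in 9 of 9 fits of the second comparison. Ccl8 would have failed the filter on low counts had its T libraries also been low. The fits kept that filter, so the passes of Ccl8 lend no support.

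Of 11 circulating monocyte markers other than the 10 genes, 2 fell in T vs. S, Vcan by 1.11 and Ace by 0.78. Both are also made by cells of the heart and its vessels. The gene that rose in A + T vs. T was Adgre4, a receptor of patrolling monocytes and some macrophages, with a change of 2.96 (standard error 0.58, adjusted P = 0.0197, edgeR), with 3, 12 and 1 counts in T and 45, 34 and 53 in A + T. It passed the filter on low counts only through A + T libraries, in which it was highest, so its call lends no support. Without animal 22 its change was 2.83, and 2 of the 11 rose. None of the 6 tested genes of dendritic cells and MHC class II passed in any comparison, with a median of 1.18 in A + T vs. T and 0.58 without animal 22. Of 5 tested alveolar macrophage genes, 1 rose in T vs. S (Ccl6, by 1.61) and none passed in A + T vs. T. Without animal 22, 3 of the 5 rose in T vs. S, namely Ccl6, Chil3 and Car4, and again none passed in A + T vs. T. Chil3 also stands among the 11 circulating monocyte markers, of which it was the 1 gene that rose in T vs. S without animal 22.

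CD300 genes other than Cd300ld mostly encode myeloid receptors, some activating and some inhibitory. Of the 5 genes of the family tested, Cd300ld included, 3 rose in A + T vs. T and 1 rose and 1 fell in T vs. S. Cd300a, an inhibitory receptor, rose by 1.73 (standard error 0.24, adjusted P = 0.0062, edgeR), with 36, 36 and 31 counts in T and 117, 82 and 173 in A + T. Cd300lb rose by 2.10 (adjusted P = 0.0126, edgeR). Their calls held in 9 and 8 of 9 leave-one-out fits, and without animal 22 their changes were 1.45 and 2.02. Cd300lf rose by 3.54 in T vs. S, but from at most 2 counts in each S library, and its call held in 4 fits. Cd300lg, which is made by capillary endothelium, had between 735 and 1380 counts in every library and passed in neither T vs. S nor A + T vs. T. Its level makes up most of the summed CPM of the family, 65.9 to 76.5 in S and 91.9 to 107 in A + T.

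Genes of monocyte recruitment and growth, which include ligands, receptors and adhesion molecules, went both ways in T vs. S, and most were higher in A + T vs. T. Of 14 such genes, 1 rose and 4 fell in T vs. S, and 3 rose and 1 fell in A + T vs. T, with or without animal 22. Passing or not, 6 were higher and 8 lower in T vs. S, and 12 higher and 2 lower in A + T vs. T. The median log2 fold change in A + T vs. T was 0.58, and 0.36 without animal 22. The 3 that rose there were the receptors Csf1r (0.91, and 1.03 without animal 22), Csf2ra (0.77 and 0.67) and Cxcr4. No ligand of the list passed as higher in A + T vs. T. Ccl7, a ligand of Ccr2, fell by 1.52 in T vs. S (adjusted P = 0.0166, edgeR), and Ccl12, another ligand of Ccr2, fell by 2.91 in A + T vs. T (adjusted P = 0.021, edgeR) on at most 19 counts per library. Cxcr4, the receptor that holds leukocytes in the marrow, fell by 1.77 in T vs. S and rose by 1.91 in A + T vs. T (adjusted P = 0.00918, edgeR), with 22, 26 and 26 counts in T. Csf2rb, the shared chain of the GM-CSF receptor, rose by 1.31 in T vs. S. With each animal left out in turn, Cxcr4 passed in 9 of 9 fits of T vs. S and 8 of A + T vs. T (1.80 without animal 22), Ccl12 in 7, Ccl7 in 5 and Csf2rb in 4.

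Of 13 transcription factors of monocytes and macrophages, 2 rose and 1 fell in T vs. S, and 3 rose and 1 fell in A + T vs. T, with or without animal 22. Spi1 (PU.1) rose by 1.06 in A + T vs. T (standard error 0.21, adjusted P = 0.021, edgeR), from 4.56 ± 0.686 to 9.55 ± 1.93 CPM (SD, n = 3). Irf5, a regulator of inflammatory macrophages, rose by 1.22 (adjusted P = 0.0163, edgeR) and Zeb2 by 0.50 (adjusted P = 0.019, edgeR). Cebpb rose by 1.15 and Zeb2 fell by 0.65 in T vs. S. Without animal 22, Spi1 changed by 0.88 and Irf5 by 1.28 in A + T vs. T. Irf5 passed in 8 of the leave-one-out fits, Spi1 in 7 and Cebpb in 5.

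**Figure D5:**
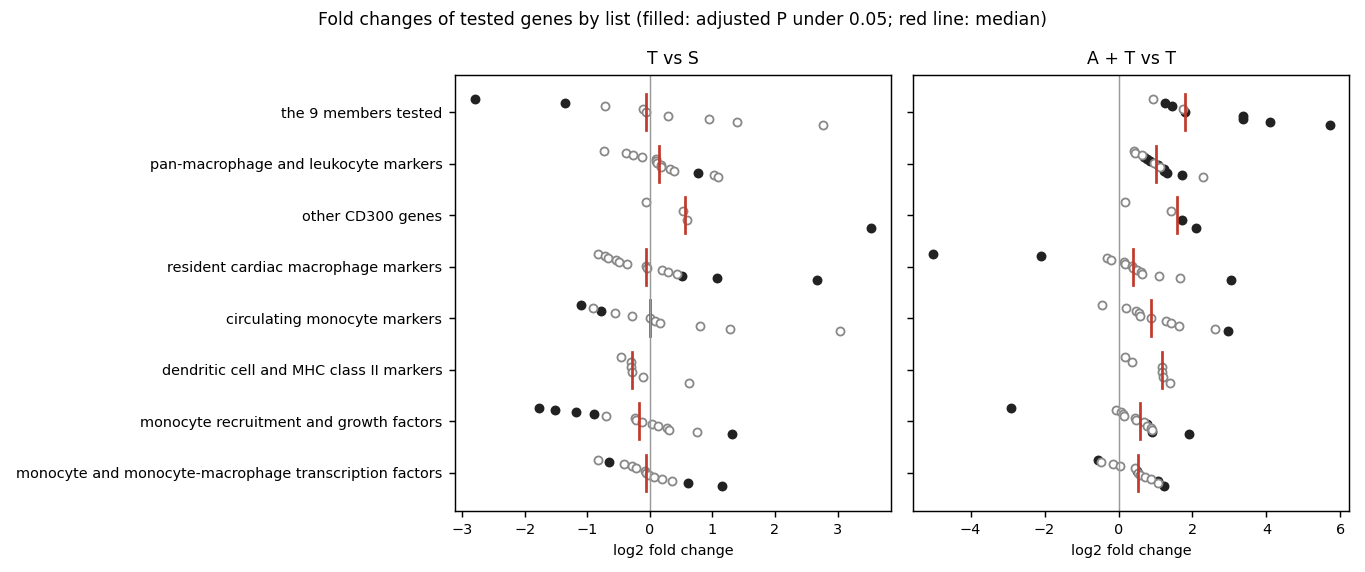
Log2 fold change of each tested gene in T vs. S (left) and A + T vs. T (right), by list, with filled points for an adjusted P-value under 0.05 and a red line at the median of the list; the 9 members tested are the top row. In A + T vs. T all 9 members and all 14 macrophage and leukocyte genes lie above 0, while resident macrophage genes lie on both sides.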

How the data were processed

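Heart RNA of 9 mice, 3 each labelled S, T and A + T, was sequenced by the authors with paired 75-base reads. These were mapped to mm10 (STAR), and the authors counted uniquely mapped, strand-matched reads on RefSeq genes and deposited raw counts. The log2 values they deposited differ from the TMM log2 CPM by a constant per gene (median SD over libraries 0.00292), as for scaling by gene length. The table also held 3443 blank rows, which were left out.

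Groups came from the labels. A gene was removed where more than 4 libraries had a CPM under 0.5, which removed 526 and kept 13364. All 9 libraries were fitted together with edgeR 4.0.16 (R 4.3.3), TMM normalization and the quasi-likelihood test, with Benjamini-Hochberg adjustment over all genes tested. Standard errors were computed as the absolute log2 fold change divided by the root of F. The steps were tested on simulated data. Members, gene lists and tests were chosen with earlier results of these data known. Named beside the members were, per list, at most the 4 tested genes with the largest change past the threshold in T vs. S or A + T vs. T, markers near 0, paralogs, and the 5 genes nearest to Cd300ld, Cd207 and Ccr2 by Pearson r. A few further genes that passed in a comparison, or that the filter removed, were named to complete a count. Alternatives were limma-voom (limma 3.58.1), limma on the deposited log2 values, DESeq2 1.42.0, the likelihood ratio test of edgeR, other scalings and filters, fewer groups in the fit, other thresholds and each animal left out. Per the labels, all hearts were extracted and sequenced together. Positions are from GENCODE M21 on GRCm38, which mm10 names. Protein sequences were not used here.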

Additional observations from a re-analysis of the deposited data

How the results depend on the processing

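The number of the 9 tested genes past an adjusted P-value of 0.05 depended on the test. In A + T vs. T it was 7, and it was 3 with limma-voom, 3 with only the groups compared in the fit, 4 with the deposited log2 values and limma, 4 with at least 10 counts in every library (4 of the 10 genes tested), and between 2 (without animal 11) and 6 with each animal left out in turn. In T vs. S it was 2, and it was 1 with at least 10 counts in every library, 4 with only the groups compared, and 2 to 3 with each animal left out. In A + T vs. S it was 5, with 3 under at least 10 counts in every library and 4 to 6 with each animal left out. The stricter filter tested fewer of the genes, and the other causes were not tested. Directions turned only for Lyz1 in T vs. S (0.15 without animal 15, range −0.47 to 0.15), Lyz2 in T vs. S (0.067 without animal 11 and 0.021 without animal 15, range −0.31 to 0.067), Ly6c2 in A + T vs. T (−0.083 without animals 12 and 22) and Plac8 in A + T vs. T (−0.43 without animal 22, whether before or after the filter, range −0.43 to 2.46 with each animal left out). Leaving out animal 22 before the filter and leaving out Rn45s were chosen after seeing the data. Low counts limit Ly6c2, Itgax, Mmp12 in S and Cd207 in T. No paired analysis was possible because the groups share no animal numbers and the replicate numbers only follow the order of the samples.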
